A study of Arabidopsis thaliana with 24 samples.

Results

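Of 34218 features counted in Arabidopsis roots, 8 genes were raised by abscisic acid (ABA) in the C24, J0571 and Q0990 crosses and stayed flat in the J1721 cross. They were chosen on their levels in CPM, the count of a gene divided by the total of its library and multiplied by 1000000. A gene was kept where its mean level in ABA-treated C24 roots was at least 2 CPM, where the ratio of the ABA mean to the mock mean was at least 1.5 in C24, J0571 and Q0990, and where that ratio exceeded 1 by at most 15% in J1721. Of 1054 genes raised in those 3 lines, 13 met the limit in J1721. The rule then left out 6 named loci of secondary wall formation, of which 5 had met every limit, and the remaining 8 genes are LAC10, TBL31, ARPC2B, AT2G17940, AT1G24030, AT3G44220, AT5G60720 and AT3G24535. Because the ABA and mock levels of all 4 lines chose these genes, their levels and differences are given below as descriptions, and counts of them past a threshold support nothing.

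The study asked how blocking ABA signalling in different tissues alters the root transcriptome's response to ABA. Every plant was an F1 seedling that carried the transgene UAS::abi1-1, in which abi1-1, a dominant form of the phosphatase ABI1 that blocks ABA signalling, stands under the yeast activating sequence UAS. Crosses to the accession C24 supply no driver for it and serve as the control. Crosses to an enhancer trap line (J0571, J1721 or Q0990) supply the yeast activator in the cells where that trap is active. J0571 is commonly used to drive ground tissue and Q0990 to drive the stele, and the labels name the driven cells for none of the lines, J1721 included. Seedlings were 5 days old, each line was treated for 8 h with 1 µM ABA or with mock, and 3 libraries were made per line and treatment from 1 cm roots of 50 to 100 pooled seedlings. Whether the pools were sown separately is not stated, and p-values therefore measure the spread between these pools.

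The 24 libraries held 38542817 to 61555387 counts each. Replicates of a group differed by more than counting noise in all 24 pairs, with chi-square per degree of freedom of 6.79 to 34.8. Mock library 1 stood apart from the other mock libraries of its line in C24 and J1721, and less so in J0571 and Q0990. The SD over genes of the log2 difference in C24 was 0.272 and 0.274 for pairs with library 1, against 0.174 for libraries 2 and 3. It was 0.220 and 0.220 against 0.155 in J1721 and 0.202 and 0.197 against 0.186 in J0571. In Q0990 it was 0.208 and 0.233 against 0.197. Without mock library 1 of every line, the rule again found 8 genes, of which 5 were among those described here. The targeted gene ABI1 had mean levels of 100 to 116 CPM in mock and 300 to 385 CPM after ABA in the 4 lines, and its counts cannot tell transgene from native transcript. Of the 17 genes on a list of core ABA-responsive genes, 17 were called higher after ABA in each of the 4 lines by edgeR's quasi-likelihood test, with median log2 changes between 2.81 (J0571) and 3.06 (J1721). Of all genes tested, 14.4% (J0571) to 18.6% (C24) were called higher. In bulk roots, fewer cells of a type and less RNA per cell cannot be told apart.

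ABA is a stress hormone that is bound by soluble receptors, which then inhibit the ABI1 family of phosphatases and free SnRK2 kinases to activate transcription factors. In roots, ABA is known to promote the formation of xylem, the water-conducting tissue, partly by raising factors that start vessel differentiation. Xylem cells deposit a secondary wall of cellulose, acetylated xylan and lignin, built by dedicated cellulose synthases, xylan enzymes and laccases under the transcription factors MYB46 and MYB83. LAC10 belongs to the laccases, copper enzymes that oxidise lignin precursors in the wall. TBL31 belongs to the trichome birefringence-like family, several members of which acetylate xylan. ARPC2B is annotated as a subunit of the Arp2/3 complex, which nucleates branched actin filaments. RefSeq describes AT1G24030 as a protein kinase, AT2G17940 as a WEB family protein, AT3G44220 as a late embryogenesis abundant hydroxyproline-rich glycoprotein family member and AT5G60720 as a protein of unknown function, and leaves AT3G24535 uncharacterized.

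In the RefSeq annotation of TAIR10.1, LAC10 (AT5G01190) spans chr5:72292-74769 on the plus strand and TBL31 (AT1G73140) spans chr1:27502021-27503834 on the minus strand. ARPC2B (AT2G33385) lies at chr2:14147382-14149902 on the minus strand and AT2G17940 at chr2:7802825-7803959 on the plus strand. AT1G24030 lies at chr1:8503217-8505460, AT3G24535 at chr3:8951868-8952761 and AT3G44220 at chr3:15927939-15929839, all on the plus strand, and AT5G60720 at chr5:24418195-24422274 on the minus strand. The genes thus lie on 4 chromosomes. The counts are for whole genes, and the reference is the accession Columbia, while the seedlings were C24 crosses.

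The 250 bases before each annotated start were searched on both strands for the core of the ABA response element, ACGTG, and for the AC elements that MYB factors of the lignin pathway are known to bind, which are ACCTACC for AC-I, then ACCAACC for AC-II, then ACCTAAC for AC-III. The ABA response element core was found in 1 of the 8 genes, AT1G24030, against 35.9% of 1046 promoters of the genes raised in C24, J0571 and Q0990 and 22.9% of 27443 promoters of protein-coding genes. An AC element of any kind was found in 2 of the 8, LAC10 and AT1G24030, against 9.08% of the raised genes and 6.12% of all. The 6 named loci held none of these motifs in the same window. Only these exact sequences were searched, so other sites of MYB factors were not covered. The promoters of the 2 genes with a match are shown with that of AT3G44220, as an example of the 6 windows that held none of them; RefSeq TAIR10.1 sequence is given 5′ to 3′ with matches in capitals. In LAC10 (chr5:72042-72291, plus strand) the capitals mark AC-II on the gene's own strand, 145 to 139 bases before the start. In AT1G24030 (chr1:8502967-8503216, plus strand) they mark the ABA response element core on the opposite strand, 138 to 134 bases before the start, and AC-III on the gene's own strand, 41 to 35 bases before it. The third window is chr3:15927689-15927938 on the plus strand.
LAC10: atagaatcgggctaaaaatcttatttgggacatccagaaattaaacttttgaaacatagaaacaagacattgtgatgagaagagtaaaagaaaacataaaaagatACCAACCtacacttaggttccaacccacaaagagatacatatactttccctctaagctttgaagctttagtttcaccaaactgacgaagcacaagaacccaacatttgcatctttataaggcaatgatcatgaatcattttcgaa
AT1G24030: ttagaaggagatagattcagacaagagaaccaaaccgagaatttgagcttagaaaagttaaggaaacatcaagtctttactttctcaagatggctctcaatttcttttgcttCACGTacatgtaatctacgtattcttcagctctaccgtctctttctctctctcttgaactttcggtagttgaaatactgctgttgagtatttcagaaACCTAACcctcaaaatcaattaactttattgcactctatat
AT3G44220: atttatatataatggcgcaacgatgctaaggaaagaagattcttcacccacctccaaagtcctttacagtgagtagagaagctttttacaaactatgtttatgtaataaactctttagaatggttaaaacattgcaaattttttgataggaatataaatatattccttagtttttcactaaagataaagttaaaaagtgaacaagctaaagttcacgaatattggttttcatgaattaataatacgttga

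Among the wall genes, LAC10 measured 3.97, 6.60 and 6.89 CPM in the C24 mock libraries and 14.2, 17.5 and 13.0 CPM in the C24 ABA libraries. In J0571 it measured 9.32, 5.92 and 6.45 CPM in mock and 14.5, 11.1 and 9.55 CPM after ABA, and in Q0990 6.33, 6.30 and 11 CPM in mock and 13.6, 11.1 and 12.7 CPM after ABA. In J1721 it measured 6.30, 5.23 and 4.13 CPM in mock and 6.25, 6.73 and 4.41 CPM after ABA. All ABA libraries thus lay above the mock libraries of their line in C24, J0571 and Q0990, narrowly so in the last 2 lines, and the treatments overlapped in J1721. The ratio of ABA to mock means was 2.56 in C24, 1.62 in J0571, 1.59 in Q0990 and 1.11 in J1721.

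TBL31, the lowest of the 8 per kilobase of exon in C24 ABA roots, measured 1.19, 1.35 and 1.66 CPM in C24 mock libraries and 3.22, 3.35 and 2.92 CPM after ABA. It measured 1.38, 1.78 and 1.60 CPM in J0571 mock libraries and 2.79, 2.41 and 2.34 CPM after ABA, and 1.52, 1.25 and 1.58 CPM in Q0990 mock libraries and 2.56, 2.72 and 2.50 CPM after ABA. In J1721 it stood at 0.842, 1.56 and 0.981 CPM in mock and at 1.22, 1.24 and 1.29 CPM after ABA. The J1721 ABA libraries were close to each other and lay within the range of the J1721 mock libraries, while in the other 3 lines treatments did not overlap. The ratios were 2.26 in C24, 1.59 in J0571, 1.79 in Q0990 and 1.11 in J1721. The difference in ABA response between J1721 and C24 was -1.03 ± 0.30 on the log2 scale (standard error of the edgeR fit) and -0.73 without J1721 mock library 2. TBL31 overlaps AT1G73130 on the opposite strand by 253 bases, and AT1G73130 had ratios of 1.04, 1.19, 1.11 and 1.10 in C24, J0571, J1721 and Q0990. The strand setting of the counting is not stated, so reads from the overlap cannot be assigned to either gene.

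ARPC2B, the actin-nucleation subunit, showed the largest of the 8 ratios in C24. It measured 2.02, 2.31 and 2.41 CPM in C24 mock libraries and 6.09, 7.07 and 5.94 CPM after ABA. The J0571 libraries held 2.58, 2.14 and 2.67 CPM in mock and 5.77, 5.48 and 5.21 CPM after ABA, and the Q0990 libraries 2.86, 2.42 and 2.80 CPM in mock and 4.11, 5.99 and 3.62 CPM after ABA. J1721 libraries held 1.18, 1.56 and 1.3 CPM in mock and 1.48, 0.673 and 1.85 CPM after ABA. ARPC2B was thus low in J1721 under both treatments, which overlapped there and in no other line, and its 3 J1721 mock libraries lay below the 9 other mock libraries. The ratio was 2.83 in C24, 2.23 in J0571, 1.70 in Q0990 and 0.992 in J1721. Its neighbour RD20, a calcium-binding caleosin gene widely used as an ABA marker, lies 826 bases away on the same strand. RD20 had 0 counts in every mock library and mean levels after ABA of 13.2 ± 4.06 CPM for C24, 13.1 ± 4.40 CPM for J0571, 13.4 ± 6.80 CPM for J1721 and 15.3 ± 0.571 CPM for Q0990 (SD, n = 3). The J1721 and C24 means of RD20 differed by less than their SD. Because the rule chose ARPC2B on its levels and did not choose RD20, nothing is read from setting these neighbours side by side. Whether RD20 reads enter the ARPC2B counts was not tested.

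AT2G17940, the WEB family gene, measured 1.79, 2.52 and 2.13 CPM in C24 mock libraries and 4.58, 5.06 and 4.70 CPM after ABA. It measured 2.07, 2.16 and 2.84 CPM in J0571 mock libraries and 4.88, 3.67 and 3.66 CPM after ABA, and 1.63, 2.54 and 2.75 CPM in Q0990 mock libraries and 3.89, 4.53 and 3.41 CPM after ABA. In J1721 the values were 1.95, 1.56 and 1.77 CPM in mock and 2.10, 1.97 and 1.70 CPM after ABA. The J1721 treatments overlapped, and those of the other lines did not. The ratios were 2.23 in C24, 1.73 in J0571, 1.71 in Q0990 and 1.09 in J1721.

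AT1G24030, the protein kinase gene, measured 7.60, 7.89 and 6.87 CPM in C24 mock libraries and 13.1, 14.5 and 12.7 CPM after ABA. It measured 8.03, 7.03 and 8.29 CPM in J0571 mock libraries and 13.1, 12 and 12.4 CPM after ABA, and 7.37, 7.25 and 8.73 CPM in Q0990 mock libraries and 11.3, 15.2 and 10.2 CPM after ABA. The J1721 libraries gave 5.80, 7.28 and 7.56 CPM in mock and 7.25, 8.62 and 7.71 CPM after ABA. The treatments overlapped in J1721 and did not in the other 3 lines. The gene stood nearest to the J1721 limit, with a ratio of 1.14 there beside 1.80 in C24, 1.61 in J0571 and 1.57 in Q0990. The gene overlaps AT1G24040 on the opposite strand over 1684 bases, so its counts may include reads of AT1G24040, which had ratios of 0.804 in C24, 0.944 in J0571, 0.701 in J1721 and 0.731 in Q0990.

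AT3G44220, the glycoprotein family gene, measured 3.11, 4.30 and 3.91 CPM in C24 mock libraries and 8.62, 8.28 and 7.45 CPM after ABA. It measured 5.15, 3.94 and 5.47 CPM in J0571 mock libraries and 7.42, 9.22 and 6.84 CPM after ABA, and 3.90, 4.58 and 4.66 CPM in Q0990 mock libraries and 6.96, 7.25 and 7.41 CPM after ABA. J1721 libraries gave 3.58, 3.72 and 3.72 CPM in mock and 4.0, 3.67 and 3.32 CPM after ABA. The treatments overlapped in J1721 and were apart in the other lines. The J1721 mean was the same in both treatments, at 3.67 CPM, and the J1721 mock mean was 97.3% of the C24 mock mean. The ratios were 2.15 in C24, 1.61 in J0571, 1.65 in Q0990 and 0.998 in J1721.

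AT5G60720, of unknown function, had the highest level of the 8 per kilobase of exon in C24 ABA roots, by a small margin. It measured 9.03, 9.87 and 12.6 CPM in C24 mock libraries and 17.4, 20.8 and 19.8 CPM after ABA. In J0571 the values were 12.4, 11.1 and 11 CPM in mock and 18.1, 16.3 and 18.1 CPM after ABA, and in Q0990 11.3, 10.6 and 12.4 CPM in mock and 17.3, 20.3 and 15.5 CPM after ABA. In J1721 they were 7.12, 9.57 and 10.8 CPM in mock and 8.67, 11.3 and 10.3 CPM after ABA. Treatments overlapped in J1721 alone of the 4 lines. The ratios were 1.84 in C24, 1.52 in J0571, 1.55 in Q0990 and 1.10 in J1721, the J0571 value lying just inside the lower limit.

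AT3G24535, the uncharacterized gene, had the widest spread among C24 ABA libraries relative to its mean. It measured 3.30, 2.97 and 2.72 CPM in C24 mock libraries and 6.58, 5.46 and 3.44 CPM after ABA. In J0571 it measured 2.99, 2.51 and 2.90 CPM in mock and 5.13, 4.15 and 5.41 CPM after ABA, and in Q0990 4.62, 2.70 and 2.63 CPM in mock and 4.84, 6.52 and 4.20 CPM after ABA. J1721 gave 2.31, 2.74 and 3.02 CPM in mock and 2.96, 2.69 and 2.08 CPM after ABA. Q0990 mock library 1 reached the range of the Q0990 ABA libraries, so the treatments overlapped in Q0990 as well as in J1721. The ratios were 1.72 in C24, 1.75 in J0571, 1.56 in Q0990 and 0.958 in J1721, the lowest J1721 ratio of the 8.

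**Figure D1:**
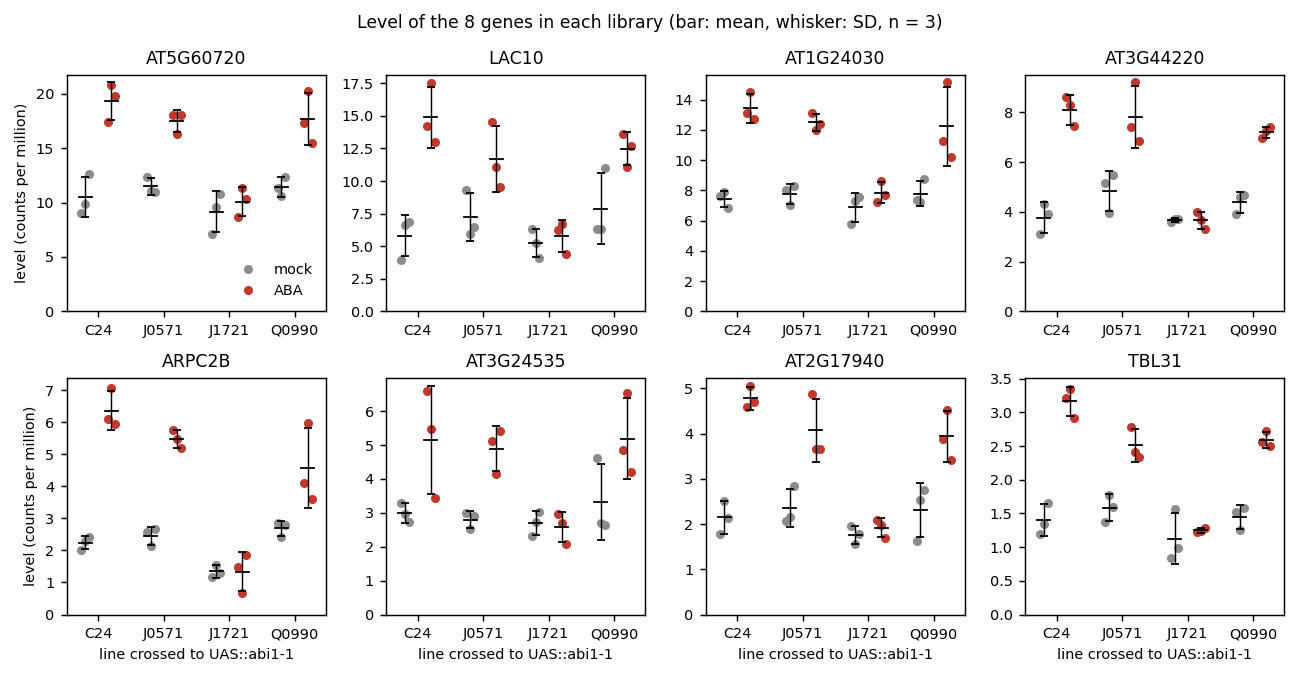
Level in CPM of each of the 8 genes (vertical axis, from 0) in the mock (grey) and ABA (red) libraries of the 4 lines, with the mean and SD of 3 libraries. After ABA, the J1721 points lie below those of the other lines in all 8 panels, and mock points of the lines lie closer together.

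Per kilobase of exon, the mean levels of the 8 genes in C24 ABA roots ran from 2.19 CPM per kilobase in TBL31 to 8.01 in AT5G60720, with LAC10 at 7.71, AT1G24030 at 7.75 and AT3G44220 at 7.43. The levels of AT5G60720 and of the last 3 genes lie close together, and their order was not tested. Those of AT2G17940 at 5.80 and AT3G24535 at 5.77 also lie close together, with ARPC2B at 3.79. Across the 24 libraries, the 28 pairs among the 8 genes had Pearson correlations of log2(CPM + 1) from 0.71 to 0.94, with a median of 0.89; the points share the 8 groups that chose the genes.

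The median ABA/mock ratio of the 8 was 2.19 in C24, 1.62 in J0571, 1.62 in Q0990 and 1.10 in J1721. Over all 1054 raised genes the medians were 2.38, 2.16, 2.23 and 2.32 in the same order. The J1721 ratio of the raised genes had its 5th percentile at 1.5, its quartiles at 1.84 and 3.56, and was at least 1.5 in 95% of them, and 1.23% met the J1721 limit. The C24 ratio was above the J0571 ratio in 7 of the 8 genes and above the Q0990 ratio in 8, against 69.7% and 64.9% of the raised genes. The 4 genes nearest outside the J1721 limit were LOG2, at 15.2% above 1, then AT4G27435 at 16.1%, RAC2 at 16.4% and GAUT12, a xylan synthesis gene, at 17.6%. Nearest inside it were AT1G24030 at 14.2%, TBL31 at 11.1%, LAC10 at 11% and AT5G60720 at 10.2%.

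**Figure D2:**
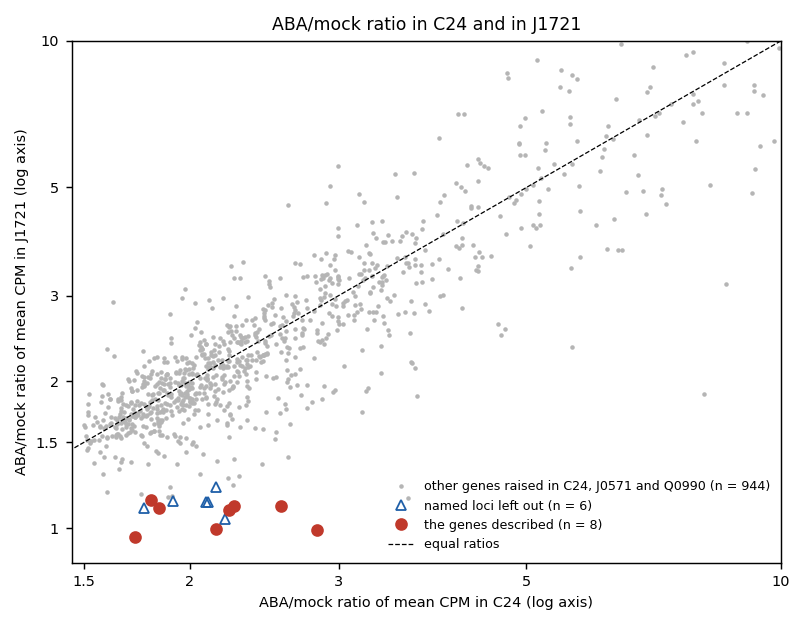
ABA/mock ratio of mean CPM in C24 (horizontal, log axis) and in J1721 (vertical, log axis) for 958 of the 1054 genes raised in C24, J0571 and Q0990, the other 96 having a ratio above 10. The 8 genes (red) and the 6 named loci left out (blue triangles) lie along the lower edge at J1721 ratios of 0.958 to 1.21, and most raised genes lie near the line of equal ratios.

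The rule set the ratios, and so largely the order of the lines after ABA, so the shares that follow describe where the chosen genes lie and are no separate finding. In mock, the J1721 mean was 59.8% of the C24 mean for ARPC2B and 80.4 to 97.3% for the other 7 genes. After ABA it was 21.0% for ARPC2B, 38.9% for LAC10, 39.6% for TBL31, 40.2% for AT2G17940, 45.2% for AT3G44220, 49.9% for AT3G24535, 52.1% for AT5G60720 and 58.6% for AT1G24030. In all 8 genes the 3 J1721 ABA libraries lay below the 9 other ABA libraries, beside 1.29% of the 21315 genes that passed edgeR's filter on low counts; the choice of genes favours this pattern, and nothing is read from it. The same pattern in mock libraries held for ARPC2B alone, beside 0.455% of genes. All 3 ABA libraries lay above all 3 mock libraries in 8 of 8 genes in C24, 8 in J0571, 7 in Q0990 and 0 in J1721, beside 18.2%, 18.9%, 18.4% and 17.2% of all genes, which restates the rule. All of the 8 genes passed the filter on low counts.

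**Figure D3:**
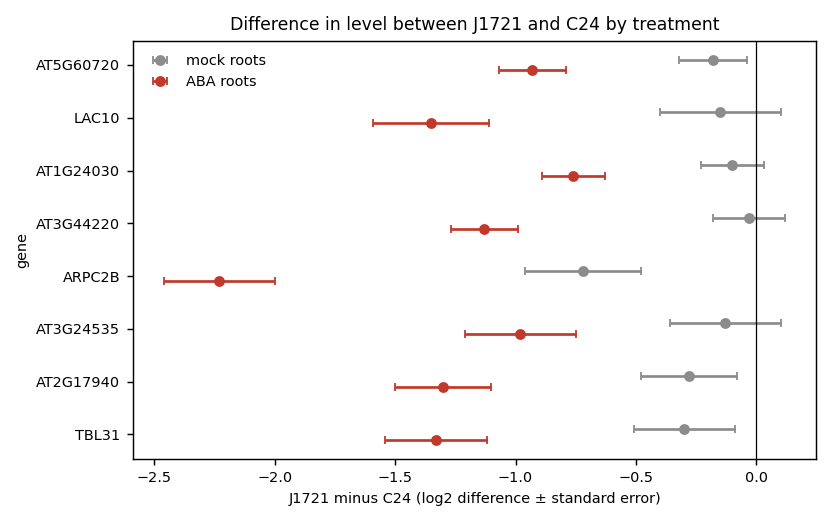
Difference in level between J1721 and C24 (horizontal, log2 difference with its standard error from the edgeR fit) for each of the 8 genes in mock (grey) and ABA-treated (red) roots. The ABA differences run from -2.23 in ARPC2B to -0.76 in AT1G24030, and the mock differences from -0.72 in ARPC2B to -0.03 in AT3G44220.

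The edgeR fit over all 24 libraries placed the 8 genes as follows, at an adjusted p under 0.05 over all genes tested; since the rule used these contrasts, the counts describe how the 8 genes sit in the fit and nothing is read from them. For the ABA response, 8 were called higher in C24, 8 in J0571, 0 in J1721 and 8 in Q0990, where 18.6%, 14.4%, 15.8% and 17.0% of all genes were called higher. None of the 8 passed in J1721 at an unadjusted p under 0.05 or by DESeq2 either. In ABA-treated roots, 8 were called lower in J1721 than in C24, against 0.638% of all genes, and in mock roots 0 were, against 0.0141%, with 1 gene at an unadjusted p under 0.05 and 0 by DESeq2. The difference in ABA response between J1721 and C24 was called lower for AT3G44220 alone of the 8, against 0.0938% of all genes, while all 8 had an unadjusted p under 0.05 and DESeq2 called AT3G44220 and ARPC2B. AT3G44220 lost that call without C24 ABA library 1 or 2, C24 mock library 1, J1721 ABA library 2 or 3, J1721 mock library 1, 2 or 3, or mock library 1 of every line, and 0 to 2 of the 8 were called with 1 library left out. Against the mean response of J0571 and Q0990, 0 of the 8 were called lower, against 0.0469% of all genes, with 7 at an unadjusted p under 0.05 and 0 by DESeq2.

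The size of that difference from C24 was largest in ARPC2B, at -1.51 ± 0.33 (log2, standard error), followed by LAC10 at -1.20 ± 0.34 and AT3G44220 at -1.10 ± 0.21. TBL31 stood at the value given above, AT2G17940 at -1.02 ± 0.28, AT3G24535 at -0.85 ± 0.33, AT5G60720 at -0.75 ± 0.20 and AT1G24030 at -0.67 ± 0.18. Neighbours in this order lie within 1 standard error of each other. ARPC2B and AT3G44220 differ in their precision, which depends on their counts and spread: AT3G44220 has the smaller difference and the smaller error. The value of LAC10 was -0.83 without mock library 1 of every line.

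The rule was also applied to 2 library numbers at a time, and the ratios of the genes it then chose were read in the third. Leaving out the libraries numbered 1, the rule chose 10 genes, 5 of them among the 8, and in the left-out libraries their median ratio was 1.99 in C24, 1.55 in J0571, 1.4 in Q0990 and 1.27 in J1721. With the libraries numbered 2 left out it chose 4 genes, 2 of them among the 8, with median ratios of 2.70, 1.74, 1.79 and 1.28 in the same order. With those numbered 3 left out it chose 16 genes, 5 of them among the 8, with median ratios of 1.76, 1.4, 1.22 and 1.08. J1721 had the lowest of the 4 ratios in 5 of 10, 4 of 4 and 7 of 16 of the chosen genes, beside 20.8%, 12.7% and 19.1% of the other raised genes. Those other raised genes include any of the named loci that were raised, and each left-out ratio rests on 1 library per group. The other raised genes had left-out medians in J1721 of 2.28, 2.58 and 2.27, in J0571 of 2.11, 2.24 and 2.29 and in Q0990 of 2.29, 2.36 and 2.18, so the chosen genes lay nearer to 1 than these in all 3 lines and not in J1721 alone. In C24 the other raised genes had 2.41, 2.70 and 2.24. In 2 of the 3 sets the J1721 median of the chosen genes lay above the limit of the rule. These sets hold genes other than the 8, and it is not stated whether libraries of different numbers are independent. The values therefore describe these sets only, and nothing is read from them about the 8 genes.

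Single libraries also set which genes met the limits. Leaving out 1 library in turn gave 4 genes without Q0990 ABA library 2 and 11 genes without Q0990 mock library 3. AT3G44220 and ARPC2B met the rule in 22 of the 24 such sets, AT2G17940 and TBL31 in 21, AT3G24535 in 20, AT1G24030 in 19, LAC10 in 18 and AT5G60720 in 16. With medians in place of means, the rule gave 10 genes, of which 4 were among the 8, and AT3G44220, ARPC2B, TBL31 and LAC10 were lost. On library sizes scaled by trimmed mean of M values (TMM), 4 of the 8 met the rule, and AT1G24030, TBL31, LAC10 and AT5G60720 rose above the J1721 limit at 19.2, 16.0, 15.8 and 15.1% above 1. The J1721 ratios below 1 on library totals, those of ARPC2B, AT3G44220 and AT3G24535, were 1.04, 1.04 and 1.0 on that scale.

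The genes whose profile over the 24 libraries was most like the mean of the 8 were CESA4 with a Pearson correlation of 0.988, IRX3 with 0.985, IRX1 with 0.983, AT3G27200 with 0.976 and IRX9 with 0.974, among 18055 genes ranked. CESA4, IRX3 and IRX1 encode the cellulose synthases of the secondary wall and IRX9 a glycosyltransferase of xylan synthesis, and these 4 are among the loci that the rule left out by name. AT3G27200, a cupredoxin superfamily gene, missed the rule through its Q0990 ratio of 1.44, with 1.95 in C24, 1.57 in J0571 and 1.10 in J1721. CESA4 had 58.6 ± 5.84 CPM in C24 mock roots and 103 ± 12.3 CPM after ABA, beside 47.8 ± 1.87 CPM in J1721 mock roots and 52.5 ± 1.88 CPM after ABA (SD, n = 3). IRX3 had 47.1 ± 6.85 CPM in C24 mock roots and 99.1 ± 15.0 CPM after ABA, beside 36.5 ± 3.52 CPM in J1721 mock roots and 41.4 ± 3.17 CPM after ABA. MYB46, the regulator of secondary wall genes, had ratios of 2.20 in C24, 1.97 in J0571, 1.77 in Q0990 and 1.04 in J1721, and IRX1, the named locus that did not meet the limit, had 1.21 in J1721. Likeness of profile is a description over libraries that share the same 8 groups. CESA4, IRX3 and IRX9 had met every limit of the rule, so the rule itself favours their likeness to the 8, and nothing is read from it.

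The difference in ABA response between J1721 and C24 was called for 36 genes in all, 20 lower (0.0938%) and 16 higher (0.0751%). Of the 20 called lower, 1 was among the 8 genes, 6 were the named loci and 2 others were on the lists of xylem and wall genes. The others, named after their values were seen, were led by CCD8, a strigolactone synthesis gene, at -2.08 ± 0.39, followed by AT2G27740 at -0.99, AT1G75280 at -0.98, AT3G27200 at -0.84 and AT1G24320 at -0.76. AT2G28315 stood at -0.68, AT5G51890 at -0.66, TBL33, a relative of TBL31, at -0.65, the UDP-xylose synthase gene UXS6 at -0.60, AT5G11420 at -0.53 and UXS3, also a UDP-xylose synthase gene, at -0.39. Their adjusted p ran from 0.0116 to 0.0418 (edgeR, Benjamini-Hochberg). The count of 36 fell to 8 without C24 ABA library 2 and to 10 without mock library 1 of every line.

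On the list of secondary wall polysaccharide and patterning genes, 25 tested genes were neither among the 8 nor named by the rule, and 2 of them, ESK1 and CTL2, had a lower ABA response in J1721 than in C24. ESK1, a xylan acetyltransferase of the family of TBL31, measured 32.4, 40.1 and 37.6 CPM in C24 mock libraries and 55.8, 57.6 and 49.3 CPM after ABA. In J1721 it measured 29.9, 32.8 and 28.5 CPM in mock and 28.5, 25.8 and 26.9 CPM after ABA, so that the groups did not overlap in C24 and touched in J1721. Its difference in response was -0.73 ± 0.13 with an adjusted p of 0.0146, and 0.0609 without C24 ABA library 2, 0.0612 without J1721 mock library 2 and 0.103 without mock library 1 of every line. CTL2, a chitinase-like protein linked to cellulose deposition, measured 47.5, 42.2 and 44.3 CPM in C24 mock libraries and 75.1, 83.8 and 67.0 CPM after ABA. In J1721 it measured 37.4, 41.6 and 48.8 CPM in mock and 39.1, 37.0 and 39.3 CPM after ABA, with overlap. Its difference was -0.91 ± 0.18 with an adjusted p of 0.0272. That p was 0.0540 to 0.125 when C24 ABA library 1 or 2, C24 mock library 1, 2 or 3, J1721 ABA library 1, 2 or 3, or J1721 mock library 2 or 3 was left out, and 0.0711 without mock library 1 of every line. Against the mean response of J0571 and Q0990, neither gene passed: ESK1 stood at -0.53 ± 0.11 with an adjusted p of 0.0555 and CTL2 at -0.55 ± 0.15 with 0.397.

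The 25 genes, ESK1 and CTL2 included, had a median difference of -0.30 between J1721 and C24, beside 0.00 over all genes, with 23 of the 25 below 0, 14 lower at an unadjusted p under 0.05 and 3 called lower by DESeq2. Against the mean of J0571 and Q0990 their median was -0.19, with 22 below 0, 0 called, 9 lower at an unadjusted p under 0.05 and 1 called lower by DESeq2. For this and the later lists, no share of all genes is given at an unadjusted p or by DESeq2. Nothing is read from those counts. After ABA, 21 of the 25 rose in C24, 17 in J0571, 20 in Q0990 and 7 in J1721, and in ABA-treated roots 10 of the 25 were lower in J1721 than in C24. Of all genes tested, 18.6%, 14.4%, 17.0% and 15.8% rose in the same order, and 0.638% were lower in ABA-treated J1721 roots. The summed level of the whole list of 31 genes was 938 to 991 CPM in C24 mock libraries and 1347 to 1535 CPM after ABA, and 858 to 890 CPM in J1721 mock libraries and 964 to 1001 CPM after ABA. The J1721 libraries of this sum were thus below all C24 libraries of the same treatment, in mock as well as after ABA. The sum includes 5 of the named loci, most of which had met the limits of the rule, so it partly restates that choice. The part of these levels in the values of the 8 genes was not tested.

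Among 22 tested xylem regulators other than MYB46, 0 differed in ABA response between J1721 and C24, with 7 lower at an unadjusted p under 0.05, 0 by DESeq2, a median of -0.34 and 20 below 0. Against the mean of J0571 and Q0990 the median was -0.10, with 12 below 0, 0 called by either tool, and 4 lower and 2 higher at an unadjusted p under 0.05. In C24, 13 of the 22 rose after ABA, in J0571 8, in Q0990 8 and in J1721 5, with 1 lower in J1721. The shares of all genes that rose were 18.6%, 14.4%, 17.0% and 15.8% in the same order. MYB83, the partner of MYB46 and the regulator with the largest difference, had 2.18 ± 0.398 CPM in C24 mock roots and 3.77 ± 0.326 CPM after ABA (SD, n = 3). In J1721 roots it had 1.43 ± 0.359 CPM in mock and 1.10 ± 0.403 CPM after ABA. Its difference in response was -1.20 ± 0.36 with an adjusted p of 0.430, which did not pass (0.165 to 0.937 over the alternatives). NAC066 and MYB58 of this list had 0 counts in all 24 libraries.

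Of 24 tested phenylpropanoid and lignin genes other than LAC10, 1 had a higher ABA response in J1721 than in C24 and 0 a lower one, with 5 lower at an unadjusted p under 0.05 and 1 called lower by DESeq2. The higher one was AT5G64120, a peroxidase gene that fell after ABA, from 690, 362 and 375 CPM in C24 mock libraries to 44.2, 35.7 and 53.4 CPM. In J1721 it went from 360, 525 and 629 CPM to 281, 168 and 148 CPM, so its fall was smaller there, by 2.07 ± 0.37 with an adjusted p of 0.0181. That p was 0.0806 without C24 ABA library 2, 0.0580 without C24 mock library 1, 0.0560 without J1721 ABA library 1, 0.0535 without J1721 mock library 2 and 0.126 without mock library 1 of every line. Against the mean of J0571 and Q0990 the difference was 1.79 ± 0.32 with an adjusted p of 0.0232. PRX52, another peroxidase gene, had the lowest value of the list, -4.67 ± 1.72 with an adjusted p of 0.839, which did not pass. Its J1721 minus C24 difference was 4.53 ± 1.34 in mock roots and -0.14 ± 1.04 after ABA. The low value thus came with a higher J1721 mock level, and the standard errors are large.

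**Figure D4:**
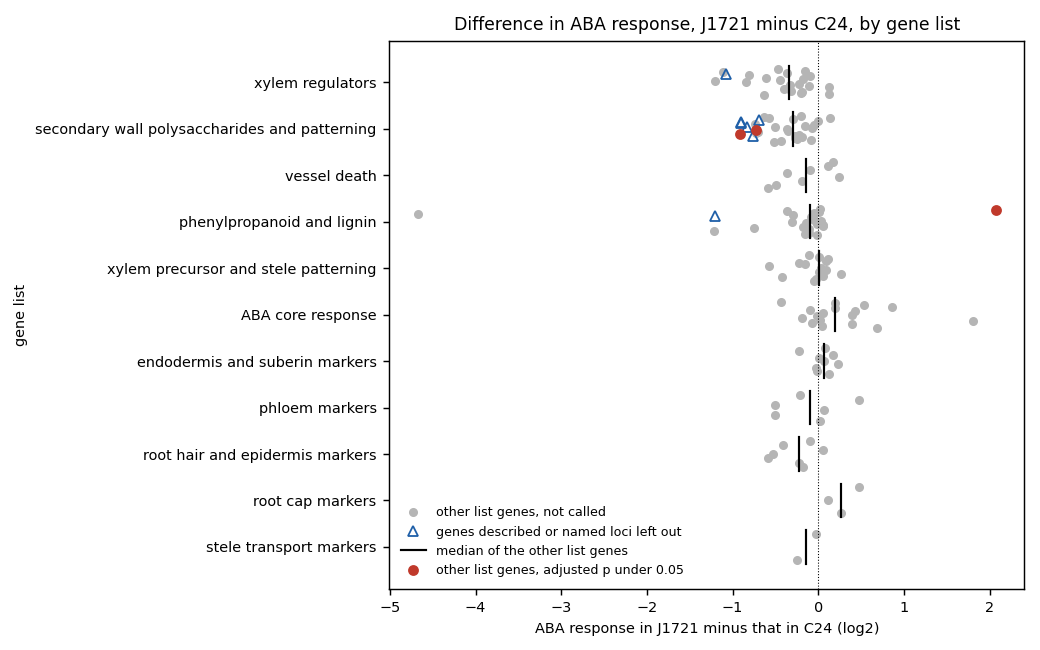
ABA response in J1721 minus that in C24 (horizontal, log2) for each tested gene of 11 lists (rows), with the median of the genes that are neither among the 8 nor named by the rule as a black bar. ESK1 and CTL2 in the secondary wall list and AT5G64120 in the lignin list are the red points called at an adjusted p under 0.05.

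The other lists gave 0 calls in the same difference: 0 of 8 vessel death genes, 0 of 15 stele patterning genes, 0 of 9 endodermis and suberin markers, 0 of 6 phloem markers, 0 of 7 root hair and epidermis markers, 0 of 3 root cap markers, 0 of 2 stele transport markers and 0 of 17 core ABA genes. At an unadjusted p under 0.05 there were 3 lower among the vessel death genes, 1 among the phloem markers and 3 among the root hair markers, and DESeq2 called 0 in each of these lists. The summed level of the 9 endodermis and suberin markers after ABA was 2155 to 2302 CPM in J1721 and 1823 to 2193 CPM in C24, and that of the 15 stele patterning genes was 473 to 523 CPM and 505 to 553 CPM. In mock the endodermis and suberin sums were 969 to 994 CPM in J1721 and 966 to 1005 CPM in C24. The stele patterning sums were 499 to 562 CPM and 563 to 587 CPM in mock, so they were lower in J1721 without ABA too. The labels name root tissue, and all 15 stele patterning genes and all 7 root hair and epidermis markers had mean levels of at least 1 CPM in every group. Of the 9 endodermis and suberin markers 8 reached that level in each group, and of the 6 phloem markers 4 to 6 did, depending on the group. In ABA-treated roots 2 of the 8 vessel death genes were lower in J1721 than in C24, beside 0.638% of all genes in the edgeR fit, and 3 by DESeq2. The summed vessel death genes stood at 364 to 430 CPM in J1721 ABA libraries and 498 to 584 CPM in C24 ABA libraries, and their part in the result was not tested. In mock libraries the sums were 324 to 381 CPM in J1721 and 377 to 424 CPM in C24. All 8 vessel death genes lay below 0 in the mock difference, J1721 minus C24, with 0 called lower.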

How the data were processed

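Root pools of 4 F1 lines were sequenced after ABA or mock, 3 libraries per group. The deposited table holds the authors' raw counts per gene for 24 libraries; HISAT2 and HTSeq appear in the submitters' processing notes. Their versions, the build, the annotation and the strand setting are not given in the sources. CPM were computed on library totals (38542817 to 61555387 counts); low counts limit the precision of the least abundant genes.

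Counts were tested in 1 edgeR 4.0.16 quasi-likelihood fit (limma 3.58.1, R 4.3.3) of 8 group means with TMM scaling and filterByExpr, with Benjamini-Hochberg adjustment over 21315 genes at 0.05. DESeq2 1.42.0, no filter, other scalings, other limits of the rule, a replicate block and each library left out in turn were alternatives. The scripts were tested on simulated data. Symbols, positions and sequences came from RefSeq TAIR10.1, which matched 32548 of 34218 features, and were summarised in Python 3.11.15.

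The 8 genes and the 11 lists, of which 150 of 154 genes were kept because the reference gives their locus that symbol, were chosen with earlier results of these data known. Named beyond the 8 genes were those nearest the limits, the dropped loci, list genes called in the difference between J1721 and C24 or largest in their list, and the 5 genes of most alike profile. ABI1, overlapping or adjacent genes, and the other genes called lower in that difference were named outside this rule.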

Additional observations from a re-analysis of the deposited data

Results flagged for a closer look

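Among genes of the lists that the rule did not use, 3 had an ABA response that differed between the J1721 and C24 crosses by the interaction test of the edgeR fit. The difference, J1721 minus C24 on the log2 scale, was -0.73 for the xylan acetyltransferase gene ESK1, -0.91 for the chitinase-like gene CTL2 and 2.07 for the peroxidase gene AT5G64120. ESK1 and CTL2 rose after ABA in C24 and were called neither higher nor lower in J1721, and AT5G64120 fell in both lines. The lists were chosen with earlier results of these data known. Of 29 alternatives, 3 lost the call for ESK1, 11 for CTL2 and 5 for AT5G64120. Against the mean response of J0571 and Q0990, ESK1 and CTL2 did not pass and AT5G64120 did.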

How the results depend on the processing

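The rule gave 3 genes with the J1721 limit at 1.0, 19 at 1.3, 0 with the limit for the other lines at 2 and 32 at 1.3, and 4 to 11 with 1 library left out. For the difference in ABA response between J1721 and C24, DESeq2 called 67 genes, the fit without mock library 1 of every line (chosen after seeing the data) 10, and fits without 1 library 8 to 39. Against the mean of J0571 and Q0990 the count of 23 became 46, 4, and 5 to 29 in the same order, and in mock roots the count of 9 became 47, 5, and 5 to 12. In ABA-treated roots 277 genes were called, and 177 to 288 with 1 library left out, the lowest without C24 ABA library 2. Counts of the ABA response without 1 library were 6169 to 7507 in C24, 4238 to 5392 in J0571, 5091 to 6304 in J1721 and 5576 to 6904 in Q0990. The labels tie same-numbered libraries to no shared source, and a shared batch was not tested: the correlation of deviations was -0.17 to 0.21 over 12 same-numbered ABA and mock pairs, with 7 over 0.1, and 5 of 24 other pairs were over 0.1. Of 12 ABA libraries, 7 were most like the mock library of their own number. The numbers were not taken as pairs, and with the replicate block 35 genes were called in the J1721 minus C24 difference against 36. The differences of the 8 genes between J1721 and C24 ran from -1.77 to -0.60 over 232 alternative values and 0 changed sign. Low counts limit genes such as TBL31, whose group means were 1.13 to 3.16 CPM.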
